A study of Homo sapiens with 42 samples.

Results

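Proliferation and DNA replication genes were followed in 786-O cells, a clear cell renal carcinoma line that lacks functional VHL, keeps HIF-2α stable without hypoxia and makes no functional HIF-1α. The 40 genes were found by their symbols among the 60609 genes counted in every library. They were read as 20 S-phase genes, which license origins, copy DNA or supply nucleotides, and 20 mitotic genes, which act in G2, at the spindle or in cytokinesis. All 40 passed the filter on low counts in both batches.

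Polyadenylated RNA was sequenced in 42 libraries, 3 per group, made in 2 batches that were prepared with different RNA extraction and library kits and were normalised and compared within themselves. Batch 1 held 27 libraries of 9 groups. These were the parental cells (WT), 2 homozygous clonal knock-in lines in which the endogenous HIF-1β or HIF-2α carries V5 and Halo tags (called HIF-1β KIN or HIF-2α KIN), and 6 lines that stably express a V5-Halo-tagged transgene from the weak L30 promoter on top of the endogenous HIF-2α. The transgenes were HIF-1α, HIF-1α R30E, HIF-1αDM, HIF-2α, HIF-2α R27E and HIF-2αDM, where R30E and R27E are mutations of the DNA binding domain and DM marks a double mutation of the domain that pairs with HIF-1β (R170A and V191D in HIF-1α, R171A and V192D in HIF-2α). Batch 2 held 15 libraries of WT, HIF-1α, HIF-2α and 2 chimeras made by exchanging the C-terminal intrinsically disordered region (IDR). HIF-2α/1α has the structured N-terminal segment of HIF-2α with the HIF-1α IDR, and HIF-1α/2α is the opposite. Each knock-in is 1 clone, so clone and tag cannot be told apart. The study's methods call the 3 libraries of a group biological replicates. Neither they nor the labels say whether these came from separate cultures, and p-values measure the spread between these libraries.

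As background, a cell enters S phase when E2F transcription factors are released from the retinoblastoma protein and switch on replication genes. CDC6 and CDT1 then load the MCM2 to MCM7 helicase ring onto origins, CDC45, the GINS complex and MCM10 turn it into a moving helicase, and POLA1, RFC, PCNA and FEN1 act in DNA synthesis at the fork. Mitotic genes are switched on later, largely through MYBL2, FOXM1 and the MuvB complex. In clear cell renal carcinoma, HIF-2α is known as a driver of growth through cyclin D1, whereas HIF-1α is regarded as growth restraining.

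The promoters show how the classes differ in sequence, so stretches are printed for the clamp loader subunit RFC3 and the factor E2F2, which moved in opposite directions with HIF-2α in batch 2, and for PLK1 and KIF23, a mitotic pair that also moved in opposite directions. Each run holds the 120 bases before the RefSeq start site on GRCh38.p14, 5′ to 3′ on the gene's own strand. RFC3 is read from chr13:33818029-33818148 (plus), E2F2 from chr1:23531234-23531353 (minus), PLK1 from chr16:23678769-23678888 (plus) and KIF23 from chr15:69414229-69414348 (plus). Capitals mark an E2F match (TTTCCCGC, TTTGGCGC, TTTCGCGC or TTTGCCGC), the cell cycle homology region, CHR (TTTGAA), or a CCAAT box, each on either strand.
RFC3: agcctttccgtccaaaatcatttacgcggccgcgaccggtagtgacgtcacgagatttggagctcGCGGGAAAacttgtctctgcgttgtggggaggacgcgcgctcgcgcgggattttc
E2F2: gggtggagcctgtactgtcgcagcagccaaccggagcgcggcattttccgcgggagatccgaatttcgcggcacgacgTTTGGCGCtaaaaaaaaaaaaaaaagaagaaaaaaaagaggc
PLK1: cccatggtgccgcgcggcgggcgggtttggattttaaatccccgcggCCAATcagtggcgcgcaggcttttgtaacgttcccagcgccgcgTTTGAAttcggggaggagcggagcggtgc
KIF23: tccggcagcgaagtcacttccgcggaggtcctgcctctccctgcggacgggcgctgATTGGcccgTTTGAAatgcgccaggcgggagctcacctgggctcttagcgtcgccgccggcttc

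RefSeq windows of 300 bases, from 250 before to 50 after the start, were matched for 35 of the 40 genes. An E2F match lay in 13 of 18 S-phase windows, in 2 of 17 mitotic windows and in 3.33% of all 27305 windows. A CHR lay in 1 of 18 S-phase windows, in 11 of 17 mitotic windows and in 15.4% of all. A CCAAT box lay in 12 of 18 and 15 of 17, against 35.7% of all. The core of the hypoxia response element (ACGTG or GCGTG, either strand) lay in 12 of 18 S-phase and 12 of 17 mitotic windows, against 48.4% of all. These are matches of letters and do not show that a factor is bound.

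Totals ran from 42377599 to 101186554 counted reads in batch 1 and from 76366799 to 109642159 in batch 2, of which the 40 genes took 0.453 to 0.678% and 0.669 to 0.778%. Normalised counts below are scaled within a batch by TMM and are not comparable between batches or between genes. The HIF1A count was 242 ± 13.5 (SD, n = 3) in WT and 3038 ± 233 with HIF-1α in batch 1, and 293 ± 28.1 and 13161 ± 494 in batch 2. EPAS1, the gene of HIF-2α, went from 14498 ± 2022 in WT to 44694 ± 6296 with HIF-2α in batch 1 and from 12621 ± 820.1 to 42541 ± 319.8 in batch 2. These counts hold endogenous and transgene reads together, and they were not equal between lines. In batch 1, EPAS1 was at 6177 ± 497 in HIF-2α KIN, 22951 ± 2617 with HIF-1α and 56676 ± 10267 with HIF-2α R27E. HIF1A was at 910 ± 280 with HIF-2α in that batch. In batch 2, EPAS1 was at 51430 ± 3088 in the HIF-1α/2α chimera and 20745 ± 1262 in the HIF-2α/1α chimera. Whether these levels bear on the comparisons was not tested. The renal markers PAX8, PAX2, LHX1 and CDH16, the keratins KRT8, KRT18 and KRT19 and VIM were above 3 counts in all 42 libraries, while PTPRC, CD3E, PECAM1, CDH5 and VWF stayed at or below 10.4. The fibroblast and pericyte markers COL1A1 and PDGFRB were also above 3 counts in all 42 libraries, and CA9 in 7 of 27 and 12 of 15. Their part in the results below was not tested. Samples of 1 group differed with GC content: the correlation of a gene's deviation with its GC content, over 8000 genes, exceeded 0.3 in size in 14 of 27 batch 1 libraries and 7 of 15 batch 2 libraries. They also differed with transcript length, where the correlation ran from -0.50 to 0.39 in batch 1 and from -0.43 to 0.41 in batch 2.

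In batch 2, some of the 40 genes fell in every HIF line, by less than 2-fold. With HIF-1α, 20 of 40 genes fell and none rose. In the HIF-2α/1α chimera, 12 fell and none rose. With HIF-2α, 17 fell and 3 rose, and in the HIF-1α/2α chimera, 10 fell and 5 rose. A gene passed when edgeR's quasi-likelihood test gave an adjusted p of 0.01 or less over all 28724 genes tested. By the same rule 7.87% of all tested genes fell and 9.31% rose with HIF-1α, 7.91% and 8.76% in the HIF-2α/1α chimera, 14% and 13.4% with HIF-2α, and 14.1% and 13.7% in the HIF-1α/2α chimera. Both directions together held 17.2%, 16.7%, 27.4% and 27.8% of all genes in that order. No member also reached 2-fold, where the shares over all genes were 4.39%, 3.49%, 7.58% and 7.78% in that order. These shares were not matched to the members in abundance. On the log2 scale, the median SD of a gene's group means was 0.117 for S-phase and 0.123 for mitotic members. It was 0.210 for the 15679 genes at least as abundant as the least abundant member. The median SD within groups was 0.069, 0.070 and 0.112 in that order. The members thus differed less between groups than such genes did. The 4 comparisons share the same 3 WT libraries. All 4 lines were made by transposition of a tagged transgene and puromycin selection, and WT was not. Batch 2 holds no line with an empty or inactive transgene. For changes shared by the 4 lines, the HIF factor and the making of the line therefore cannot be told apart. In a culture, fewer cells in a cycle phase and less RNA of the gene per cell cannot be told apart. With HIF-1α, leaving out 1 library gave 10 to 20 passing genes, with the lowest count without HIF-1α replicate 1 and 13 without HIF-1α replicate 2 or WT replicate 2. In the HIF-1α/2α chimera, scaling by library totals alone gave 15 lower and 4 higher.

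**Figure D1:**
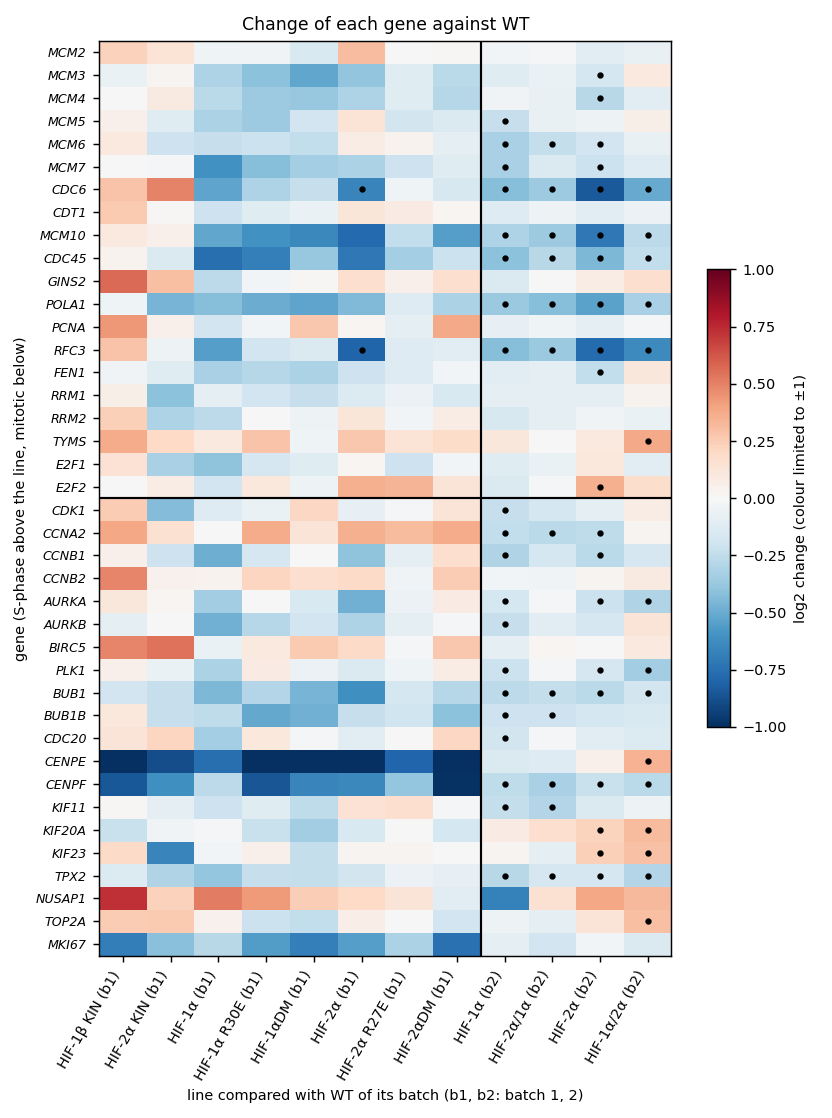
Log2 change from WT of the same batch for the 40 genes (rows, ordered by role) in the 12 comparisons with WT (columns), coloured from blue (lower) to red (higher) and limited to ±1, with a dot where the adjusted p was 0.01 or less. Dots are dense in the 4 batch 2 columns (67 of 160 cells) and sparse in the 8 batch 1 columns (2 of 320 cells).

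In all 4 batch 2 lines, 8 genes fell. These were CDC6, CDC45 and MCM10 of origin licensing and firing, POLA1 and RFC3 of DNA synthesis at the fork, the checkpoint kinase BUB1, the kinetochore protein CENPF and the spindle factor TPX2. A further 4 fell in 3 lines, 4 in 2 lines and 7 in 1 line, 6 rose in at least 1 line, none both rose and fell, and 11 passed in none. Of the 8, CDC6, RFC3 and POLA1 passed in all 6 fits of each line that leave out 1 library. TPX2 passed in only 2 of 6 with HIF-2α and 2 of 6 in the HIF-2α/1α chimera. CENPF passed in 2 of 6 with HIF-2α and BUB1 in 2 of 6 in the HIF-1α/2α chimera. Under other settings these last 2 values came as close to 0 as -0.04 and -0.07.

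CDC6, the loader of the MCM helicase at origins (ENSG00000094804.12, chr17:40287879-40304657, plus strand, GRCh38), had the largest fall of the 40 in a batch 2 line. Its normalised counts were 7973, 8033 and 8309 in WT and 4202, 4438 and 4959 with HIF-2α. They were 5754, 5658 and 6679 with HIF-1α, 6214, 5864 and 6815 in the HIF-2α/1α chimera and 5491, 5672 and 5959.7 in the HIF-1α/2α chimera. All 12 libraries of the HIF lines lay below all 3 WT libraries, and the HIF-2α libraries were the lowest. The log2 change was -0.84 ± 0.07 (SE) with HIF-2α (adjusted p = 1.5e-14), -0.51 ± 0.07 in the HIF-1α/2α chimera, -0.43 ± 0.07 with HIF-1α and -0.36 ± 0.07 in the HIF-2α/1α chimera.

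RFC3, a subunit of the clamp loader that places PCNA on DNA (ENSG00000133119.13, chr13:33818069-33966558, plus strand), followed the same order. The WT counts were 3350.2, 3707 and 3524, against 1983, 1995 and 2242 with HIF-2α. HIF-1α/2α gave 2416, 2214 and 2164, HIF-1α 2559, 2582 and 2741 and HIF-2α/1α 2604, 2697 and 2896. No library of a HIF line reached the WT range. The log2 change was -0.77 ± 0.07 with HIF-2α (adjusted p = 1.1e-12), -0.64 ± 0.07 in the HIF-1α/2α chimera, -0.43 ± 0.07 with HIF-1α and -0.37 ± 0.07 in the HIF-2α/1α chimera.

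MCM10, which helps to activate the helicase (chr10:13161558-13211110, plus strand), was at 4688, 5048 and 4605 in WT and 2902, 2801 and 3019 with HIF-2α. The other lines were closer to WT, with 3819, 3773 and 3978 for HIF-1α, 3684, 3569.8 and 3913 for the HIF-2α/1α chimera and 4251, 3908 and 3780.4 for the opposite chimera. All of these lay below the WT libraries, and the change with HIF-2α was -0.72 ± 0.06 (adjusted p = 4.1e-13). POLA1, the catalytic subunit of the polymerase that starts new strands (chrX:24693873-24996986, plus strand), fell by a more even amount. Its counts were 5177, 5124 and 5371 in WT, 3969, 3924 and 4238 with HIF-1α, 3997, 3535 and 4111 in the HIF-2α/1α chimera, 3501, 3556 and 3772 with HIF-2α and 4401, 4002 and 4098 in the HIF-1α/2α chimera. The log2 changes ran from -0.53 with HIF-2α to -0.33 in the HIF-1α/2α chimera, and their intervals overlapped. CDC45, part of the active helicase, changed by -0.41 ± 0.06 with HIF-1α, -0.27 ± 0.06 in the HIF-2α/1α chimera, -0.45 ± 0.06 with HIF-2α and -0.25 ± 0.06 in the HIF-1α/2α chimera.

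**Figure D2:**
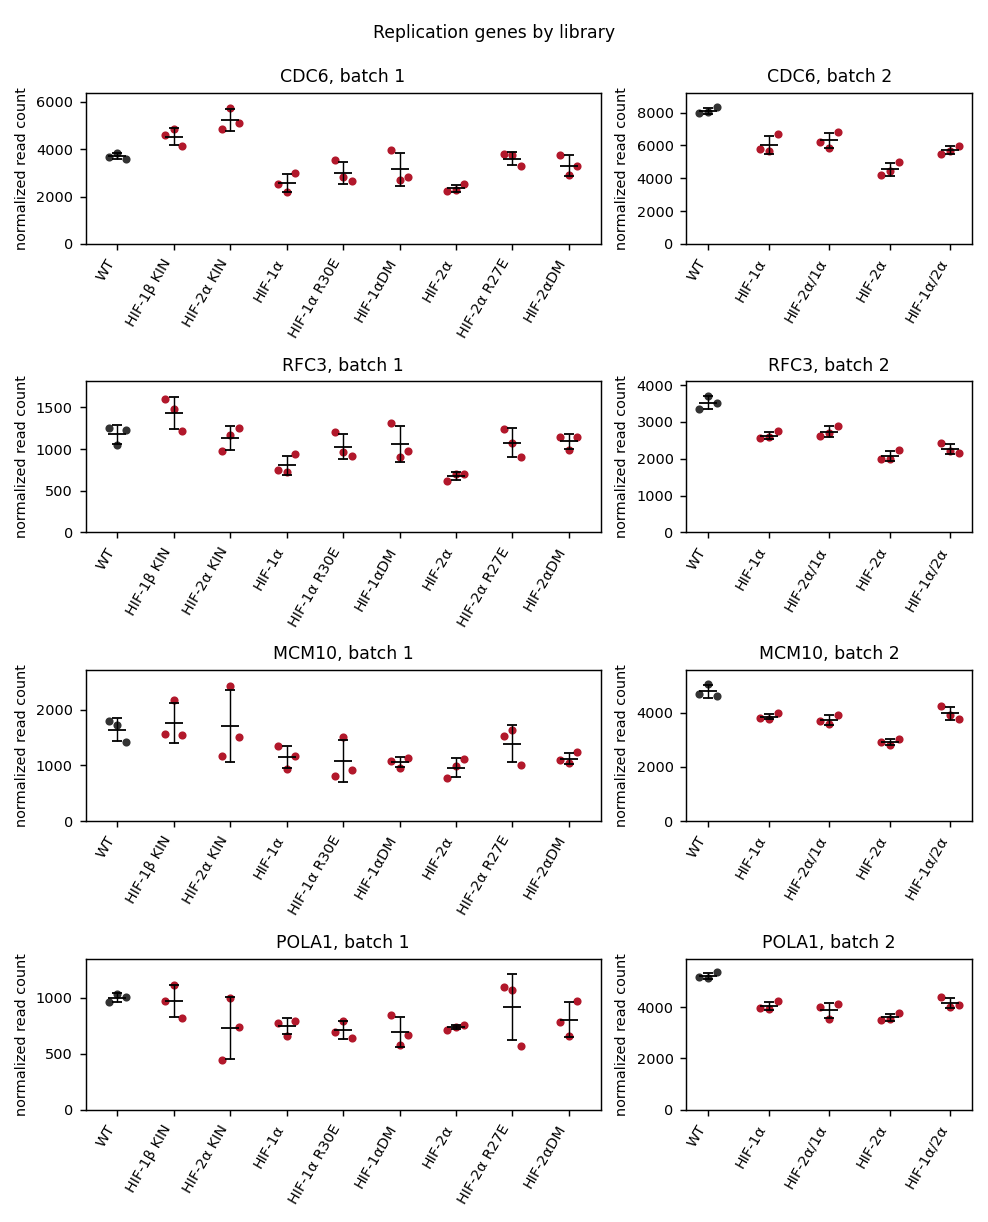
Normalised counts of CDC6, RFC3, MCM10 and POLA1 in each library, by group and batch, with 1 point per library and bars at the mean ± SD of 3 libraries. In batch 2 every HIF line lies below WT for all 4 genes, and for CDC6 the HIF-2α libraries run from 4202 to 4959 against 7973 to 8309 in WT.

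The MCM2 to MCM7 ring, the replicative helicase, did not move as 1 unit. With HIF-1α, MCM5, MCM6 and MCM7 fell, with log2 changes of -0.23 ± 0.06, -0.32 ± 0.05 and -0.32 ± 0.05. With HIF-2α, MCM3, MCM4, MCM6 and MCM7 fell, from -0.17 ± 0.05 for MCM3 to -0.28 ± 0.05 for MCM4. MCM6 alone fell in the HIF-2α/1α chimera (-0.24 ± 0.05), and no ring subunit passed in the HIF-1α/2α chimera. MCM2, a common proliferation marker, passed in no line. Its WT counts were 14849, 14035 and 14829.7, and the HIF-2α libraries were at 13284, 13258 and 13905, just below them. The interval of the MCM2 change with HIF-2α, -0.22 to 0.00, leaves out a change of the size seen for CDC6, and the libraries of the other 3 lines overlapped WT. Part of the MCM2 exonic sequence, 23.6%, is shared with an antisense gene, and counting ignored strand.

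Of the other fork genes, FEN1, which trims Okazaki fragments, passed with HIF-2α alone (-0.25 ± 0.05), and the sliding clamp PCNA passed in no line, at -0.08 with HIF-1α, -0.04 in the HIF-2α/1α chimera, -0.10 with HIF-2α and -0.01 in the HIF-1α/2α chimera. Among the genes of nucleotide supply, the ribonucleotide reductase subunits RRM1 and RRM2 passed in no line, and RRM2 was at -0.16, -0.10, -0.03 and -0.06 in the same order. TYMS, which makes thymidylate, rose in the HIF-1α/2α chimera, from 4596, 4576 and 4732 in WT to 6049, 5896 and 6159, a log2 change of 0.38 ± 0.06 (adjusted p = 3.8e-07). The groups did not overlap, but 47.9% of TYMS exonic sequence is shared with other genes. The licensing factor CDT1 and the GINS subunit GINS2 passed in no line against WT.

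Of the E2F factors, E2F2 rose with HIF-2α and E2F1 passed in no line. E2F2 counts were 1052, 1104 and 1036 in WT and were 1364, 1399 and 1318 with HIF-2α, with no overlap (log2 0.35 ± 0.08, adjusted p = 0.0005). HIF-1α/2α gave 1180.4, 1279 and 1144, HIF-1α 929.8, 998 and 960.3 and HIF-2α/1α 951, 1068 and 1133, and none of these 3 passed. E2F1 was at 9696, 9600.0 and 9352 in WT, 8434, 8609.7 and 9251 with HIF-1α, 9421, 8424 and 9481 in the HIF-2α/1α chimera, 10681, 9994 and 10066 with HIF-2α and 8589.6, 8966 and 9124 in the HIF-1α/2α chimera. The log2 changes of E2F1 lay between -0.12 with HIF-1α and 0.10 with HIF-2α.

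**Figure D3:**
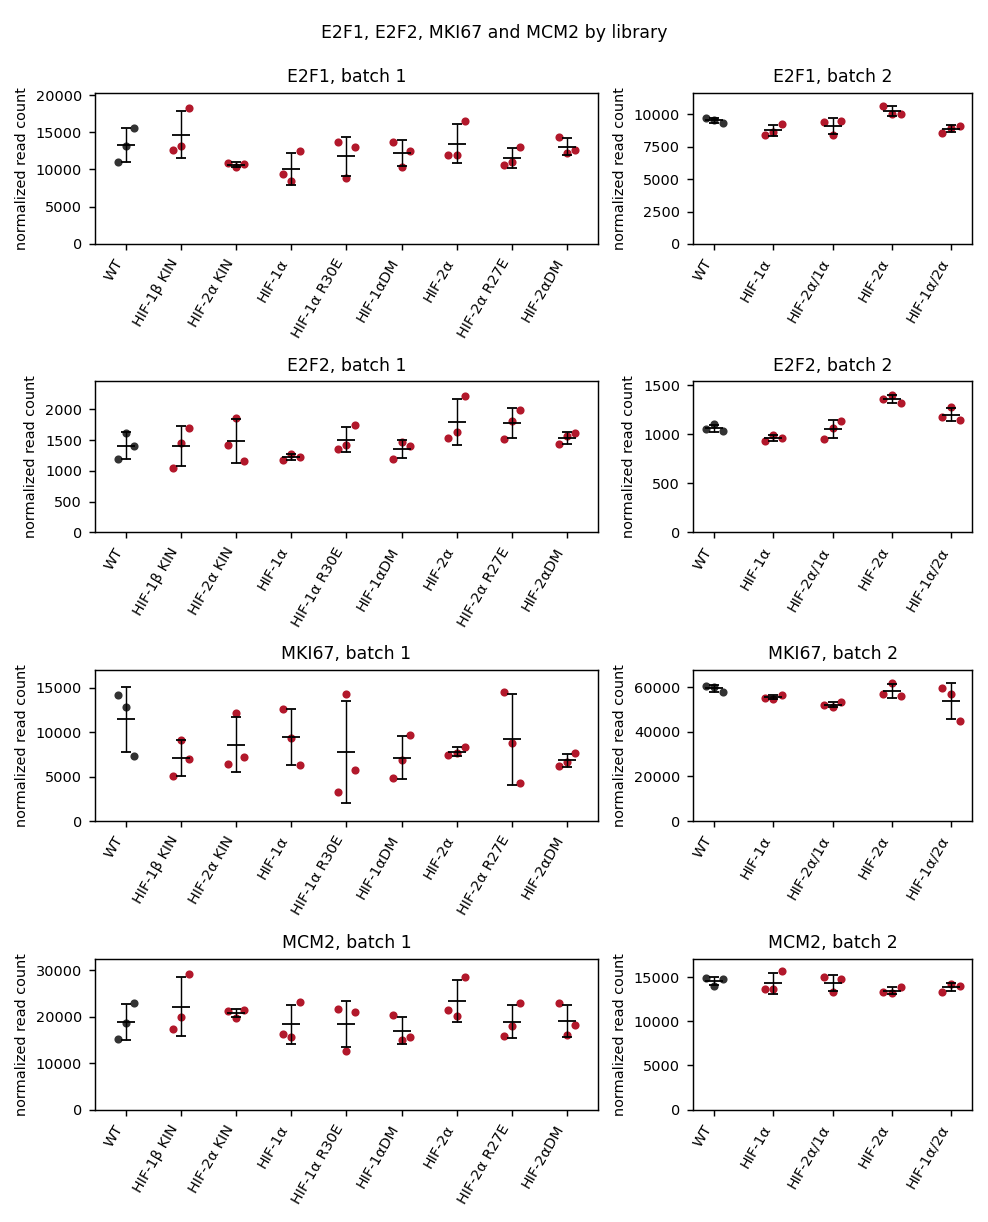
Normalised counts of E2F1, E2F2, MKI67 and MCM2 in each library, by group and batch, with 1 point per library and bars at the mean ± SD of 3 libraries. In batch 2 the E2F2 libraries of HIF-2α (1318 to 1399) sit above WT (1036 to 1104), while MKI67 and MCM2 passed the test in no line.

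Among the mitotic genes, 12 of 20 fell with HIF-1α, 6 in the HIF-2α/1α chimera, 7 with HIF-2α and 5 in the HIF-1α/2α chimera. Many of these calls with HIF-1α depended on single libraries. Of 6 fits that leave out 1 library, BUB1, CCNB1 and TPX2 passed in 6 and CENPF and KIF11 in 4. CDK1, CCNA2 and PLK1 passed in 3, AURKA and AURKB in 2, CDC20 in 1 and BUB1B in 0. With HIF-2α, PLK1 passed in 1 of 6. The spindle factor TPX2 was at 48407, 49956 and 50847 in WT, and its log2 change was -0.28 ± 0.05 with HIF-1α, -0.17 ± 0.05 in the HIF-2α/1α chimera, -0.17 ± 0.05 with HIF-2α and -0.29 ± 0.05 in the HIF-1α/2α chimera. BUB1, a kinase of the spindle checkpoint, changed by -0.26 ± 0.05, -0.24 ± 0.05, -0.27 ± 0.05 and -0.18 ± 0.05 in that order. All libraries of the 4 lines lay below WT for both genes. The kinases PLK1 and AURKA, which drive mitotic entry and spindle assembly, had their lowest values in the HIF-1α/2α chimera, at -0.35 ± 0.05 and -0.30 ± 0.05, and neither passed with the opposite chimera, at -0.01 and -0.02. Of CDK1, the kinase that starts mitosis, and its cyclins, CCNB1 fell with HIF-1α (-0.30 ± 0.06) and HIF-2α (-0.27 ± 0.06) and was at -0.18 and -0.17 in both chimeras, HIF-2α/1α first. CCNA2 fell with HIF-1α, HIF-2α/1α and HIF-2α, and CCNB2 passed in no line. CDK1 fell with HIF-1α (-0.23 ± 0.06) and was at -0.18, -0.10 and 0.08 for the HIF-2α/1α chimera, for HIF-2α and for the HIF-1α/2α chimera. Under other settings the CDK1 change with HIF-1α was as small as -0.09, and it passed in 6 of 8.

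The mitotic genes that rose are motors of the midzone and genes of chromosome structure or attachment. KIF23, a kinesin of cytokinesis, was at 7163, 7854 and 7596 in WT, 8769, 8832 and 9135 with HIF-2α and 9312, 9287 and 9038 in the HIF-1α/2α chimera. The 2 lines with the HIF-2α IDR lay above WT without overlap, by 0.24 ± 0.06 and 0.29 ± 0.06, whereas HIF-1α and HIF-2α/1α gave 0.03 and -0.09 and did not pass. KIF20A, another kinesin of cytokinesis, rose by 0.22 ± 0.05 with HIF-2α and by 0.32 ± 0.05 in the HIF-1α/2α chimera. TOP2A, which untangles sister DNA, rose in the HIF-1α/2α chimera by 0.30 ± 0.05, and the kinetochore motor CENPE by 0.35 ± 0.09, although CENPE libraries of HIF-1α/2α overlapped WT.

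MKI67, the gene of the Ki-67 antigen used to grade tumour growth, passed in no line. Its counts were 60420.2, 59960.4 and 57768 in WT, 55255, 54673 and 56400.2 with HIF-1α, 52045, 50937 and 53357 in the HIF-2α/1α chimera, 56918, 61654 and 56136 with HIF-2α and 59719, 56950.4 and 44775 in the HIF-1α/2α chimera. The HIF-1α and HIF-2α/1α libraries lay below WT and the other 2 lines overlapped it. The lowest adjusted p was 0.016, in the HIF-2α/1α chimera, at a log2 change of -0.19 ± 0.06.

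S-phase and mitotic genes were set side by side by a score per library, the mean over the 20 genes of a class of the log2 difference from the WT mean. In batch 2 the S-phase score was -0.19 ± 0.07 (SD, n = 3) with HIF-1α, -0.14 ± 0.08 in the HIF-2α/1α chimera, -0.21 ± 0.03 with HIF-2α and -0.08 ± 0.0049 in the HIF-1α/2α chimera. The mitotic score was -0.19 ± 0.06, -0.11 ± 0.04, -0.06 ± 0.01 and -0.01 ± 0.06 in the same order. All 12 S-phase scores lay below the 3 WT libraries. The mitotic scores of HIF-1α/2α (-0.07 to 0.06) overlapped the WT range of -0.0562 to 0.0352. Those of HIF-2α were -0.0811, -0.0559 and -0.0568, so that replicate 2 entered the WT range by a narrow margin. The mitotic score includes NUSAP1, at 17.3, 22.6 and 23.1 counts in WT and 19.8, 23.1 and 39.9 with HIF-2α. A mitotic score without NUSAP1 was not computed. The S-phase score minus the mitotic score was -0.13, -0.19 and -0.13 in the HIF-2α libraries, all below the WT range of -0.02 to 0.04. In the HIF-1α/2α chimera its mean was -0.07 ± 0.07, with 2 of 3 libraries below the WT range (-0.14 and -0.07), in the HIF-2α/1α chimera -0.03 ± 0.04, with 1 of 3 below it, and with HIF-1α -0.01, with 0 of 3. These scores carry no test. With the median gene in place of the mean, HIF-2α scored -0.16 for the S-phase class and -0.12 for the mitotic class, so that the gap between the classes narrowed.

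**Figure D4:**
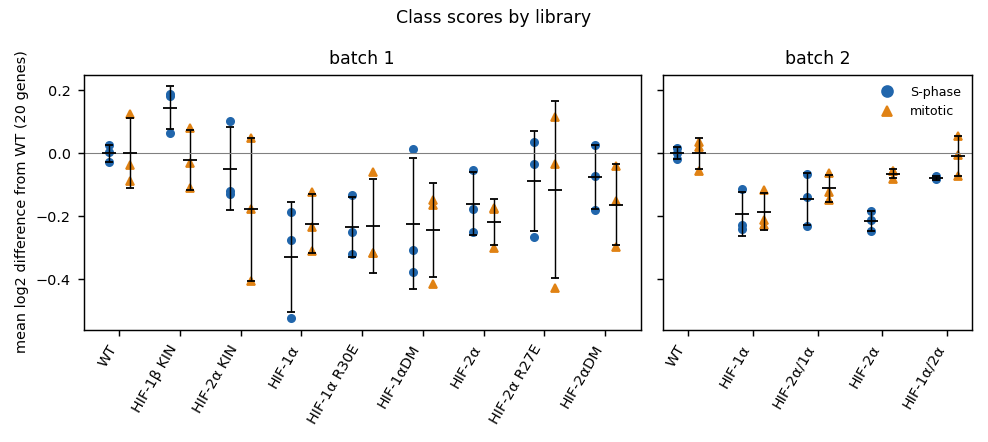
S-phase score (circles) and mitotic score (triangles) of each library, as the mean log2 difference from the WT mean of its batch over 20 genes, by group in each batch, with bars at the mean ± SD of 3 libraries. In batch 2 the HIF-2α libraries are low for the S-phase class (-0.25 to -0.18) and nearer to WT for the mitotic class (-0.08 to -0.06, against -0.06 to 0.04 in WT).

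In batch 1, 2 of 320 member tests passed. Both were with HIF-2α, where 7.99% of the 23410 tested genes passed and 3% passed as lower. RFC3 went from 1252, 1045 and 1228 in WT to 616, 705 and 706 (log2 -0.80 ± 0.17, adjusted p = 0.0018). CDC6 went from 3678, 3837 and 3601 to 2248, 2256 and 2518 (log2 -0.66 ± 0.16, adjusted p = 0.0043). Neither gene's groups overlapped. Leaving out 1 library at a time gave 0 to 2 passing genes, with RFC3 passing in 4 of 6 fits and CDC6 in 1 of 6. No member passed in the other 7 lines. Of all genes, 1.78% passed in HIF-1β KIN and 5.89% in the other knock-in, HIF-2α KIN. The HIF-1α transgene gave 4.79%, its R30E form 3.33% and its DM form 0.474%, while HIF-2α R27E gave 0.521% and HIF-2αDM 0.504%. No member was past 2-fold and the test together in any of the 8 lines, where the share of all genes was 1.38% (HIF-1β KIN), 4.14% (HIF-2α KIN), 3.79% (HIF-1α), 2.61% (its R30E form), 0.457% (its DM form), 5.72% (HIF-2α), 0.496% (its R27E form) and 0.474% (its DM form). At an unadjusted p under 0.05, these lines had from 0 members (HIF-2α R27E) to 9 (HIF-1α). These counts are not read further, since the share of all genes at that cut is not given here. The median standard error of a member's log2 change was 0.23 in batch 1 and 0.06 in batch 2, so a change of the size seen in batch 2 was often not detectable in batch 1.

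The replicate numbers paired the libraries of batch 1 in some comparisons. With the replicate number as a block, 4 members fell with HIF-1α, where 8.49% of all genes passed in the same fit, namely CDC45 (-0.76 ± 0.16, adjusted p = 0.00063), the mitotic kinase gene AURKB (-0.49 ± 0.12, adjusted p = 0.0029), MCM7 (-0.62 ± 0.16, adjusted p = 0.0073) and CDC6 (-0.52 ± 0.14, adjusted p = 0.0093). CDC45 was also lower in the DNA binding mutant HIF-1α R30E with the block (-0.67 ± 0.15, adjusted p = 0.0031). The share of all genes for that comparison is not given here. Without the block this CDC45 value was -0.68 ± 0.22 (adjusted p = 0.080). In HIF-1β KIN, GINS2 rose in the fit with the block (0.55 ± 0.14, adjusted p = 0.0088), where 3.92% of all genes passed. Between HIF-2α and HIF-2α R27E, CDC6 (-0.62 ± 0.14, adjusted p = 0.0020) and RFC3 (-0.66 ± 0.16, adjusted p = 0.0036) were lower with HIF-2α, where 9% of all genes passed. The 4 genes that fell with HIF-1α under the block also fell with it in batch 2.

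The other counts of the 2 genes in batch 1 give the pattern over the mutants. CDC6 was at 2545, 2206 and 2975 with HIF-1α, 3528, 2811 and 2643 with its R30E form, 3958, 2677 and 2827 with its DM form, 3782, 3734 and 3285 with HIF-2α R27E and 3751, 2892 and 3281 with HIF-2αDM. The knock-in lines had 4586, 4833 and 4127 (HIF-1β KIN) and 4846, 5726 and 5106 (HIF-2α KIN), the latter all above WT (log2 0.50 ± 0.16, adjusted p = 0.041, against 0.0059 by DESeq2). RFC3 was at 753, 721 and 938 with HIF-1α, 1201, 964 and 919 with its R30E form, 1313, 906 and 973 with its DM form, 1246, 1076 and 902 with HIF-2α R27E, 1147, 992 and 1141 with HIF-2αDM, 1600.4, 1476 and 1221 in HIF-1β KIN and 979.9, 1169 and 1254 in HIF-2α KIN. For both genes the HIF-2α libraries lay below those of HIF-2α R27E and HIF-2αDM. Tested directly, RFC3 was lower with HIF-2α than with HIF-2αDM (-0.69 ± 0.17, adjusted p = 0.0084, against 5.43% of all genes), a call that was lost when any 1 library was left out. CDC6 with HIF-2α against HIF-2α R27E was at -0.62 ± 0.16 (adjusted p = 0.0104) without the block and just missed the threshold, where 4.99% of all genes passed. No member passed between HIF-1α and HIF-1α R30E or HIF-1αDM, where 2.18% and 1.6% of all genes did.

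Other members had values in batch 1 that missed the threshold in the test without a block. CDC45 was at -0.75 ± 0.23 with HIF-1α (adjusted p = 0.034) and -0.72 ± 0.23 with HIF-2α (adjusted p = 0.033), and MCM10 at -0.77 ± 0.25 with HIF-2α (adjusted p = 0.035). With the block all 3 values passed (adjusted p = 0.00063, 0.0010 and 0.0083), and 5 members fell with HIF-2α, the others being AURKA (-0.49 ± 0.13, adjusted p = 0.0067), CDC6 and RFC3, where 13.8% of all genes passed. For HIF-2α and WT the correlations of same-numbered libraries began at 0.088, so that the numbers did not pair them in every case. E2F2 was at 0.35 ± 0.19 with HIF-2α (adjusted p = 0.25), from 1187, 1623 and 1408 in WT to 1527, 1638 and 2214, and the groups overlapped. CENPE had the largest changes and the widest spread, with WT at 842, 959 and 521 and HIF-2α at 210.1, 239 and 258 (log2 -1.71 ± 0.70, adjusted p = 0.11). Without the filter on low counts CENPE passed as lower in 5 of the 8 lines, at -1.79 to -1.26, and after a correction for GC content and length in none. MKI67 ran from 3314 to 14511 over the 27 libraries, against 44775 to 61654 in batch 2 on that batch's own scale, and MCM2 from 12605 to 29238. Neither passed in any line of batch 1. The longest transcript of MKI67 has 12716 bases, and libraries of a group also differed with transcript length. Whether that bears on the range of MKI67 was not tested. The S-phase score was lowest with HIF-1α, at -0.33 ± 0.17, followed by -0.23 ± 0.09 with HIF-1α R30E, -0.22 ± 0.21 with HIF-1αDM and -0.16 ± 0.10 with HIF-2α, and was highest in HIF-1β KIN at 0.14 ± 0.07, and the mitotic score was between -0.24 ± 0.15 (HIF-1αDM) and -0.02 ± 0.10 (HIF-1β KIN).

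HIF-1α and HIF-2α were expressed in both batches, so their changes could be compared between them in 1 fit of 18 libraries and 26763 genes. No member's change differed between the batches by edgeR's test without a block, for either factor, and 0.00374% of all genes did for HIF-1α and 0% for HIF-2α. For HIF-2α, CENPE differed by DESeq2 and without the filter on low counts. With the replicate number within each batch as a block, 3 members differed for HIF-2α, where 3.17% of all genes did. They were CENPE (1.54 ± 0.20, adjusted p = 4.9e-07), CCNA2 (-0.76 ± 0.12, adjusted p = 1.8e-05) and MCM2 (-0.56 ± 0.11, adjusted p = 0.00043), each as batch 2 minus batch 1. Without the block, at an unadjusted p under 0.05, 6 members differed for HIF-2α and 0 for HIF-1α. The share of all genes at that cut is not given here, so these counts are not read as a result about the members. The S-phase genes that fell in all 4 batch 2 lines are given for both batches, and their batch 2 values were below 0 by that choice. CDC6 changed by -0.66 and -0.84 with HIF-2α in batches 1 and 2, RFC3 by -0.80 and -0.77, MCM10 by -0.77 and -0.72, POLA1 by -0.44 and -0.53, and CDC45 by -0.72 and -0.45. With HIF-1α the same genes changed by -0.52 and -0.43 (CDC6), -0.55 and -0.43 (RFC3), -0.52 and -0.31 (MCM10), -0.43 and -0.37 (POLA1), and -0.75 and -0.41 (CDC45). Among the members, the largest difference between batches was that of CENPE for HIF-2α, at 1.61 ± 0.34 (adjusted p = 0.087).

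HIF-2α and HIF-1α were also set directly against each other. In batch 2, 5 members were higher with HIF-2α and 4 lower, where 17.6% of all genes passed. E2F2 (0.50 ± 0.08), E2F1 (0.23 ± 0.06), GINS2, KIF23 and TOP2A were higher. CDC6 (-0.41 ± 0.07), MCM10 (-0.41 ± 0.06), RFC3 (-0.34 ± 0.07) and MCM4 (-0.24 ± 0.05) were lower. Scaling by library totals alone gave 1 higher and 6 lower, a correction for GC content and length gave 17 passing members, and leaving out 1 library gave 5 to 11, with 5 without HIF-1α replicate 1, HIF-1α replicate 2 or HIF-2α replicate 1. The shares of all genes in these alternative fits are not given here. In batch 1 none passed, where 3.07% of all genes did. At an unadjusted p under 0.05 there were 4 members, a count given without the share of all genes at that cut.

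The 4 transgenes of batch 2 form a square of 2 structured parts and 2 IDRs. Averaged over the structured parts, the HIF-2α IDR gave higher expression than the HIF-1α IDR for 13 members and lower for 6, where 11.4% and 13.4% of all genes passed (24.7% in either direction). The higher group was led by E2F2 (0.35 ± 0.06), CENPE (0.34 ± 0.06), KIF23 (0.30 ± 0.04) and TOP2A (0.29 ± 0.04), and also held GINS2, TYMS, MCM5, MCM6, CDK1, CCNA2, KIF11, KIF20A and AURKB. The lower group was RFC3 (-0.31 ± 0.05), CDC6 (-0.28 ± 0.05), AURKA, MCM10, MCM4 and PLK1. Over 12 fits that leave out 1 library each, AURKB passed in 4, CCNA2 in 5 and MCM5 and MCM10 in 7. KIF20A passed in 9, PLK1 in 11 and the rest in all 12. With library totals alone the split was 6 higher and 6 lower. The structured part, averaged over the IDRs, moved 5 members. PLK1 was higher with the HIF-2α part (0.19 ± 0.04) and MCM10 (-0.25 ± 0.04), TYMS (-0.20 ± 0.04), FEN1 (-0.17 ± 0.04) and CCNA2 (-0.15 ± 0.04) lower, where 11.4% of all genes passed. For the structured part, CCNA2 passed in 5 of 12 fits that leave out 1 library. For 6 members, MCM3, CDC6, MCM10, CDC45, FEN1 and AURKB, the effect of the IDR differed between the structured parts, being more negative on the HIF-2α part by -0.42 to -0.33 on the log2 scale, where 5.37% of all genes passed. Leaving out 1 library gave 3 to 9 such members. For some of the 6 the averaged effects above did not hold on both sides of the square. On the HIF-2α part, AURKB was at 8844, 8309 and 8994 with the HIF-2α IDR and 8902, 8459 and 9825 with the HIF-1α IDR. On the HIF-1α part, MCM10 and CDC6 counts of the 2 IDRs overlapped. With the HIF-1α IDR, FEN1 and MCM10 counts of the 2 structured parts overlapped.

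**Figure D5:**
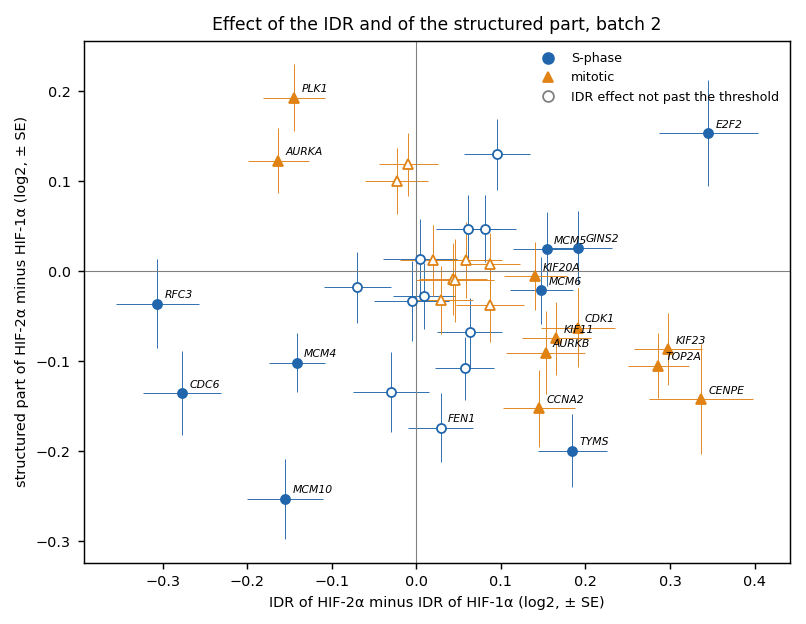
Effect of the IDR (HIF-2α minus HIF-1α, log2, horizontal) against effect of the structured part (HIF-2α minus HIF-1α, log2, vertical) for 39 of the 40 members, 1 point per gene with bars of ±1 SE, circles for S-phase and triangles for mitotic genes, filled where the IDR effect passed. NUSAP1, with few counts, is left out, and RFC3 and CDC6 lie furthest to the left at -0.31 and -0.28.

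NUSAP1, a microtubule-binding protein, had 17.3, 22.6 and 23.1 counts in WT of batch 2, and 86.8% of its exonic sequence is shared with other genes, so its values are uncertain. BUB1B (10.2% shared), PLK1 (12.8%), CCNA2 (9.24%) and MCM7 (8.49%) have smaller overlaps.

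Lists of related genes were followed beside the members in batch 2. At the same threshold, 7.87% of all genes fell and 9.31% rose with HIF-1α, and 7.91% and 8.76% in the HIF-2α/1α chimera. With HIF-2α the shares were 14% and 13.4%, and in the HIF-1α/2α chimera 14.1% and 13.7%. Of 52 other replication genes, 19 fell and 1 rose with HIF-1α, 21 and 1 in the HIF-2α/1α chimera, 26 and 1 with HIF-2α, and 13 and 7 in the HIF-1α/2α chimera. BRCA2, DBF4, EXO1, RFC1, RFC4 and RFC5 fell in all 4 lines. RFC1, RFC4 and RFC5 are, like RFC3, subunits of the clamp loader. TK1, which salvages thymidine, rose in all 4, by 0.29 to 0.40. Of 60 other mitotic genes, 19 fell and 1 rose with HIF-1α, and 23 and 3 in the HIF-2α/1α chimera. With HIF-2α, 11 fell and 10 rose, and in the HIF-1α/2α chimera 9 and 17. These mitotic counts with HIF-2α are near the shares of all genes and are not read as a result. The HIF-2α IDR gave higher expression than the HIF-1α IDR for 33 of the 60 and lower for 0. Of all genes, 11.4% were higher and 13.4% lower in that comparison. ECT2, ESPL1, KIF14, NCAPH, SMC2 and ZWINT fell in all 4 lines and PSRC1 rose in all 4 (0.37 to 0.56). Of 18 transcription regulators of the cell cycle, 5 fell with HIF-1α, 5 in the HIF-2α/1α chimera, 8 with HIF-2α and 9 in the HIF-1α/2α chimera, and 1 rose, FOXM1 in the HIF-1α/2α chimera (0.17 ± 0.05). MYBL2 (-0.50 to -0.39), the MuvB subunit LIN9 (-0.46 to -0.40), the retinoblastoma-related repressor RBL1 (-0.42 to -0.30) and the E2F partner TFDP1 (-0.69 to -0.22) fell in all 4 lines. In batch 1 the same 3 lists gave 4 passing tests in the 8 comparisons with WT, of which E2F7 changed by -0.81 ± 0.15 with HIF-1α R30E and -0.81 ± 0.15 in HIF-2α KIN. The share of all genes that passed in these comparisons ran from 0.474% (HIF-1αDM) to 7.99% (HIF-2α).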

How the data were processed

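Polyadenylated RNA of 786-O cells was sequenced in 2 batches, by kits that differ between them. The authors aligned reads to hg38 with STAR and deposited raw counts per gene, made with HTSeq from uniquely mapped reads without regard to strand on GENCODE 32, so that overlapping genes on opposite strands share or lose reads. The submitters' processing notes give STAR 2.7 and HTSeq 0.11.1.

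The deposited count tables were read as they stand. Each batch was fitted with edgeR 4.0.16 (R 4.3.3) by the quasi-likelihood test, with TMM factors, all groups of the batch in 1 model and no block, for genes with a mean normalised count of at least 0.5. A gene passed at a Benjamini-Hochberg adjusted p of 0.01 or less over all genes tested, and was called at 2-fold as well. Intervals are 95% intervals. Class scores used log2 CPM with a prior count of 2. Batches were joined only to test whether the change with HIF-1α or HIF-2α differed between them. The tests were also run on simulated counts drawn independently for each library. That simulation held no replicate pairing and no trend with GC content or length, so it does not check the tests against these. Totals per library limit precision only for the rarest members, since the spread between replicates is wider than counting error.

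The members and the lists of related genes (other replication genes, other mitotic genes, transcription regulators of the cell cycle, replication-dependent histones, cell type markers) were chosen with earlier results of these data known. Among members that passed, up to 3 with the largest change in each direction and class were named per comparison, beside MKI67, CDK1, CCNB1, PLK1, MCM2, PCNA, RRM2, E2F1 and E2F2 in any case. CENPE was added after its values were seen. The labels give the genotype of HIF-2αDM as a HIF-1α transgene, and it was taken as HIF-2α from its title.

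Replicate numbers recur in every group. Deviations from the group mean of same-numbered libraries correlated at 0.242 on average in batch 1, over 0.1 in 32 of 39 pairs, and at 0.0033 in batch 2, over 0.1 in 0 of 15. Every pair exceeded 0.1 for WT against both knock-in lines, HIF-1α, HIF-1αDM and HIF-2α R27E, and for HIF-2α against HIF-2α R27E and HIF-1α in batch 1.

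Alternatives were DESeq2 1.42.0, other scaling factors, no filter on low counts, only the groups compared, the replicate block and leaving out each library. A correction for GC content and length, alone and with the block, was chosen after seeing the data. Promoter sequences are from RefSeq (GRCh38.p14) and coordinates of genes from GENCODE 44 on GRCh38.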

Additional observations from a re-analysis of the deposited data

Results flagged for a closer look

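The effect of the disordered region differed with the structured part it was joined to for 6 of 40 members in batch 2, by edgeR's test of that difference. Each value is the log2 difference of HIF-2α from HIF-2α/1α, less that of HIF-1α/2α from HIF-1α, with its standard error. It was -0.33 ± 0.07 for the helicase subunit MCM3 (adjusted p = 0.00089), -0.39 ± 0.09 for the helicase loader CDC6 (adjusted p = 0.0031), -0.40 ± 0.09 for MCM10 (adjusted p = 0.0015), -0.34 ± 0.09 for CDC45 (adjusted p = 0.0094), -0.37 ± 0.08 for the flap nuclease FEN1 (adjusted p = 0.00062) and -0.42 ± 0.09 for the kinase AURKB (adjusted p = 0.0016). All 6 are negative, where 5.37% of all tested genes passed in either direction. Over the 12 fits that leave out 1 library each, MCM3, MCM10 and FEN1 passed in 12, AURKB in 10, CDC6 in 7 and CDC45 in 3. FEN1 counts were 7209, 7016 and 7132 with HIF-2α, 8279, 7459 and 8101 with HIF-2α/1α, 9128, 8938 and 9363 with HIF-1α/2α and 7613, 7722 and 8281 with HIF-1α, so that the HIF-2α IDR went with a lower level on the HIF-2α part and a higher one on the HIF-1α part.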

How the results depend on the processing

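No value that passed the test changed sign. Class scores smaller than their SD did: leaving out 1 library, the S-phase score of HIF-2α R27E ran from -0.15 to 0.0019, and the mitotic score from -0.23 to 0.041 for HIF-2α R27E, from -0.070 to 0.042 for HIF-1β KIN and from -0.040 to 0.025 for HIF-1α/2α in batch 2. The S-phase score of HIF-2α KIN was 0.015 with library totals, and the mitotic score of HIF-1β KIN 0.057 as a median. Of the single members, 838 values under another setting kept their direction and side of the threshold, 24 came to pass and 52 no longer did. Leaving out 1 library, the same counts were 723, 2 and 163. The median log2 change of all tested genes with HIF-2α in batch 1 was -0.09 with TMM, -0.02 with RLE factors and -0.30 with library totals alone, so values of that line are read relative to it. The causes of the changes below were not tested. The share of all genes that passed also moved with the setting, as for HIF-2α in batch 1, from 7.99% to 13.8% with the block. The counts of members below stand without that share. They show how the calls depend on the setting and are not results about the members.

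Replicate block. In batch 1, the members that passed went from 0 to 4 for HIF-1α, 0 to 1 for HIF-1β KIN, 0 to 1 for HIF-1α R30E, 2 to 5 for HIF-2α, 1 to 3 for HIF-2α against HIF-2αDM and 0 to 2 for HIF-2α against HIF-2α R27E. The block, set within each batch, moved the difference of HIF-2α between batches from 0 to 3. In batch 2, where same-numbered libraries did not correlate over all genes, it moved the structured part from 5 to 10 and its interaction with the IDR from 6 to 10. Over the members, the S-phase score of replicate 3 was above its group mean in 5 of 5 groups of batch 2, with 31 of 40 members above theirs on average. It moved no other count by over 1.5 times.
With GC and length correction beside the block, the counts were 5 for HIF-1α, 2 for HIF-1α R30E, 1 for HIF-1β KIN, 2 for HIF-2α KIN, 5 for HIF-2α, 2 for HIF-1α against HIF-1α R30E, 1 for HIF-2α against HIF-1α and 2 for HIF-2α against HIF-2α R27E in batch 1. In batch 2 they were 24 for HIF-1α/2α, 20 for HIF-2α/1α, 19 for HIF-2α against HIF-1α, 11 for the structured part and 13 for the interaction, and 3 for HIF-2α between batches. GC and length correction alone gave 2 for HIF-1α, 1 for HIF-2α KIN, 0 for HIF-2α against HIF-2αDM and 1 against HIF-2α R27E in batch 1, and 17 for HIF-2α against HIF-1α and 8 for the structured part in batch 2.

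Without the filter on low counts, 1 passed for HIF-1α, 1 for HIF-1αDM, 2 for HIF-1α R30E, 2 for HIF-1β KIN, 4 for HIF-2α, 2 for HIF-2αDM and 0 for HIF-2α against HIF-2αDM, all in batch 1, and 1 for HIF-2α between batches. With only the groups compared, 4 passed for HIF-2α and 2 for HIF-2αDM. DESeq2 gave 1 for HIF-2α KIN, 2 for HIF-2α against HIF-2α R27E, 1 for HIF-2α between batches and 8 for the structured part. RLE factors gave 0 for HIF-2α against HIF-2αDM. Library totals alone gave 3 against HIF-2αDM, 2 against HIF-2α R27E and 12 for the IDR.

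The S-phase score of HIF-1α/2α in batch 2 was -0.0882 with RLE factors, -0.124 with library totals and -0.0636 as a median. That of HIF-2α was -0.27 with library totals and -0.16 as a median in batch 2, and -0.37 with library totals in batch 1. The mitotic score of HIF-2α was -0.12 with library totals and -0.12 as a median in batch 2, and -0.43 with library totals in batch 1. The S-phase score of HIF-1β KIN was 0.0666 as a median.

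Leaving out 1 library, the lowest and highest counts were 10 and 20 for HIF-1α in batch 2, 5 and 11 for HIF-2α against HIF-1α in batch 2, 3 and 9 for the interaction, 4 and 8 for the structured part, 0 and 2 for HIF-2α in batch 1, 0 and 2 against HIF-2α R27E, 0 and 0 against HIF-2αDM, and 0 and 1 for HIF-2α KIN. For the scores they were -0.0882 and -0.0700 (S-phase, HIF-1α/2α) and -0.0927 and -0.0470 (mitotic, HIF-2α), both in batch 2.

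Depth was not the limit for most members. In batch 1 the spread between replicates limits the test, and groups of 3 libraries leave small changes undetected. Overlapping genes, 1 clone per knock-in and a shared WT group bear on every comparison they enter.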

Other observations

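Part of the histone genes of the S-phase clusters rose. As background, these genes make most of their mRNA without a poly-A tail, and these libraries selected for one. Of 74 such genes, 58 were tested in batch 2, and 12 rose with HIF-1α, 19 in the HIF-2α/1α chimera, 12 with HIF-2α and 10 in the HIF-1α/2α chimera, while 0 fell. Of all genes, 9.31%, 8.76%, 13.4% and 13.7% rose in that order. The linker histone gene HIST1H1C was at 102 ± 7.88 normalised counts (SD, n = 3) in WT, 425 ± 42.6 with HIF-1α, 637 ± 126 in the HIF-2α/1α chimera, 940.1 ± 138 with HIF-2α and 420.3 ± 66.6 in the HIF-1α/2α chimera. HIST1H2BK went from 262 ± 13.9 to 647 ± 28.7, 879 ± 49.7, 932 ± 62.1 and 519 ± 76.3, and HIST1H2AC from 97.6 ± 6.17 to 352 ± 43.5, 488 ± 50, 549 ± 60.3 and 307 ± 26.7, in the same order. Of these 12 mean changes, each exceeded 2-fold except that of HIST1H2BK in the HIF-1α/2α chimera. In batch 1, 56 were tested, and 5 rose with HIF-1α, 5 with HIF-1α R30E, 6 with HIF-2α, 2 with HIF-2αDM, 2 in HIF-2α KIN and 1 with HIF-1αDM, while 0 fell. The shares of all genes that passed in either direction were 4.79%, 3.33%, 7.99%, 0.504%, 5.89% and 0.474% in that order. HIST1H1C was at 166 ± 17.5 in WT, 681 ± 195 with HIF-1α, 653 ± 16 with HIF-1α R30E and 899.9 ± 123 with HIF-2α. The genes were picked for naming after their values were seen. Whether the tail, the amount or the cycle phase changed was not tested.

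In HIF-1β KIN of batch 1, the pyrophosphatase gene DUT rose (1.18 on the log2 scale). RB1, the retinoblastoma gene, changed by -0.52 ± 0.07 in the HIF-1α/2α chimera in batch 2. TFDP1 was lower with HIF-2α than with HIF-2αDM in batch 1 (-0.74 ± 0.18).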
